A study of Rattus norvegicus with 6 samples.

Results

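The YAP, TAZ, TEAD and Hippo regulator genes were followed in rat nucleus pulposus cells, which come from the soft centre of the intervertebral disc, with and without serum. The set holds 10 genes of the 17093 in each deposited table, taken by gene symbol: the coactivator genes Yap1 and Wwtr1 (the gene of TAZ), the DNA-binding partner genes Tead1, Tead2 and Tead3, the kinase genes Lats1 and Lats2, the scaffold genes Ajuba and Amotl2, and Ankrd1, a widely used target gene of YAP and TAZ. Each symbol stood on 1 row in every table. The cells were primary cells of male rats at passages 3 to 6. Control cells (3 libraries) were kept in DMEM-F12 with 10% fetal bovine serum, penicillin and streptomycin, and serum-starved cells (3 libraries) in medium without it, both with a stated time of 48 h. The labels name no strain or age. Whether replicates are different rats, different dishes or repeats of 1 preparation is not stated, so a p-value here measures only library-to-library spread, which may be technical.

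In the Hippo pathway, a cascade of MST and LATS kinases phosphorylates YAP and TAZ, which are then held in the cytoplasm by adaptor proteins or degraded. Unphosphorylated YAP and TAZ enter the nucleus, bind TEAD factors and raise the transcription of growth and matrix genes, among them genes for their own inhibitors. Serum lipids acting through G-protein-coupled receptors are known to turn the LATS kinases off, and cell density and stiffness act on the same kinases. The regulation is largely one of phosphorylation and location, which transcript levels do not measure.

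Values are those deposited, treated as FPKM (fragments per length of transcript and per size of library), so that levels of different genes can be set side by side. A log2 fold change is serum-starved minus control on log2(value + 1), with its standard error (SE), and understates the change of low genes. A gene is said to rise or fall where its limma p, adjusted by Benjamini-Hochberg over all 11493 tested genes, was no higher than 0.05; tested genes reached a value of 1 in 3 or more libraries. The depth in reads is unknown. Library sums were 447788 to 473452 in serum-starved and 522165 to 530095 in control cells. Control replicate 3 differed most from the other controls, with an SD of log2 differences of 0.220 and 0.248 against 0.181 between the other pair.

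Labelled identity was only partly visible in the markers. Of 14 nucleus pulposus marker symbols 12 were matched and 9 tested, and their summed level was 393.5 to 425.4 in control and 229.2 to 238.3 in serum-starved libraries. Hif1a had the highest mean of the list, at 121.8 in control and 96.64 in serum-starved cells. Slc2a1 averaged 141.9 in control and 30.66 in serum-starved cells and weighed heavily in the difference in sum. Of the 9 tested, 2 were higher and 7 lower in serum-starved cells. The 2 higher were Car3, at 1.03 in control and 26.15 in serum-starved cells on average, and Pax1, at 27.53 and 51.22. Acan, which encodes the disc proteoglycan aggrecan, stood at 82.6, 103 and 47.2 in control and 3.27, 2.67 and 3.22 in serum-starved libraries, while Krt18 was listed at 0 in every library and Col2a1 at 0 to 0.06. Col1a1, a fibroblast and annulus marker, averaged 2248, and that list summed to 2775 to 3158 in control and 3299 to 3379 in serum-starved libraries (7 of 8 matched). Of these 7, all tested, 3 were higher, among them Mkx and Pdgfra, and Thy1 was 3.10-fold lower. The smooth muscle and pericyte list summed to 325.6 to 419.7 in control and 674.8 to 723.4 in serum-starved libraries (7 of 7 matched). Acta2 carried that difference in sum (142 in control and 554 in serum-starved cells on average); of 6 tested, 2 were higher and 2 lower, with Cspg4 2.88-fold and Mcam 1.82-fold lower. Endothelial markers summed to at most 2.38 (4 of 7 matched) and erythroid markers to at most 0.03 (1 of 4 matched). Immune markers summed to 23.5 to 29.9 in control and 10.7 to 14.3 in serum-starved libraries (6 of 9 matched). Of the 2 tested, Cd14, which carried the sum, was lower and Cd68 was higher (1.96 in control and 3.38 in serum-starved cells on average). Schwann and neural markers summed to 29.7 to 38.1 in control and 111.7 to 121.3 in serum-starved libraries (6 of 6 matched, led by S100b, with Sox10 at 0 in every library). The part of these shifts in the results below was not tested. In such bulk samples, fewer cells of a type and less RNA per cell cannot be told apart.

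Promoter windows of 300 bases, from 250 before to 50 after the start that the RefSeq table gives (GRCr8 build), were found for 6 of the 10 genes: Yap1, Wwtr1, Tead3, Lats1, Ajuba and Amotl2. Entries for Tead1, Tead2, Lats2 and Ankrd1 were not in the table. They were searched on both strands for GGAATG, the core letters bound by TEAD factors, TGANTCA, the letters bound by AP-1, and GGGCGG, a GC box. GGAATG was in 3 of the 6 windows and in 14.2% of 33469 promoter windows of the same length. The pair of coactivator promoters and the promoters of both scaffold genes are printed because Yap1 and Ajuba rose and Wwtr1 and Amotl2 did not pass the test, as described below. Capitals mark GGAATG or, where it lies on the other strand, CATTCC. The windows lie at chr8:13451388-13451687 on the minus strand (Yap1), chr2:143916892-143917191 on the minus strand (Wwtr1), chr15:31999993-32000292 on the minus strand (Ajuba) and chr8:112182376-112182675 on the plus strand (Amotl2).
Yap1: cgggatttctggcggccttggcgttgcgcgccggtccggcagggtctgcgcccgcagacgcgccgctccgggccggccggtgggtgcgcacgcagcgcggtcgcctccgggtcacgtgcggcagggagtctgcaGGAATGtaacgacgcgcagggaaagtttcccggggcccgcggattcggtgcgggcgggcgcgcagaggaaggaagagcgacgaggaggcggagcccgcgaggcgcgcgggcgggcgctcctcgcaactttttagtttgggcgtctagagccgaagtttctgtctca
Wwtr1: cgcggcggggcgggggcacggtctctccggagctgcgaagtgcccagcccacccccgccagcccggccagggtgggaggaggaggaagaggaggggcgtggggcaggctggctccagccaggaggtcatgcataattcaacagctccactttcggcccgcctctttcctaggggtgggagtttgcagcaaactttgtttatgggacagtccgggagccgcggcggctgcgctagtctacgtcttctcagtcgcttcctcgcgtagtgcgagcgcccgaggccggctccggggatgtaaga
Ajuba: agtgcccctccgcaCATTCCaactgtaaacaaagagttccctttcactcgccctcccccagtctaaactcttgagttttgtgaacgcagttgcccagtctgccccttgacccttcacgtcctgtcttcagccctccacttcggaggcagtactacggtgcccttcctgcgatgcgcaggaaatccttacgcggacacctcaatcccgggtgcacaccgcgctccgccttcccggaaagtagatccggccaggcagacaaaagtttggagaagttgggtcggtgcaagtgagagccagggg
Amotl2: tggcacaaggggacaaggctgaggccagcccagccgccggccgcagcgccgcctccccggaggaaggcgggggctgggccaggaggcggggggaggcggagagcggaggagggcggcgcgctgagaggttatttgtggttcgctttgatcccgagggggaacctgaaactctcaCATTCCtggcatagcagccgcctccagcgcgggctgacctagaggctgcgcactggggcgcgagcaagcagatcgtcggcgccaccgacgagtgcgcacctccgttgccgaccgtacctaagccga

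The match began 116 bases before the given start in Yap1, 236 in Ajuba and 76 in Amotl2, and the Wwtr1 window held none. For Yap1 and Amotl2 the given start lies 203 and 566 bases inside the outermost start of the gene in the RefSeq table, so another start has another window. TGANTCA was in 0 of the 6 windows (7.33% of all windows) and GGGCGG in 5 of 6 (33.1% of all windows), the exception being Ajuba. CG dinucleotides numbered 47 in Yap1, 26 in Wwtr1, 17 in Ajuba and 31 in Amotl2, against a median of 7 and an upper quartile of 19 over all windows. A match in letters is a description and not a binding site, and both a gene that rose and a gene that did not pass the test carried it.

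Of the 10 genes, 9 passed the filter and were tested; Ankrd1 was below it in all 6 libraries. Yap1, Tead1, Tead2, Lats1 and Ajuba rose in serum-starved cells, Lats2 fell, and Wwtr1, Tead3 and Amotl2 did not pass the test. Over all tested genes 61.1% were called, 31.7% higher and 29.4% lower, so 6 calls of 9 tested genes are near the share among all genes and say nothing particular about the set. The groups did not overlap in these 6 genes, 5 of them higher and 1 lower, beside 68.2% of all tested genes (35.7% higher and 32.5% lower). The median log2 fold change of the 9 was 0.35, against 0.03 over all tested genes. When libraries were scaled to equal totals, an alternative chosen after seeing the data, the median over all tested genes was 0.20 and the share of calls that were higher was 69.7% in place of 51.8%. On that scale Yap1, Tead1, Tead2, Lats1 and Ajuba were again higher, Lats2 was again lower, and Wwtr1 and Tead3 were also called higher.

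**Figure D1:**
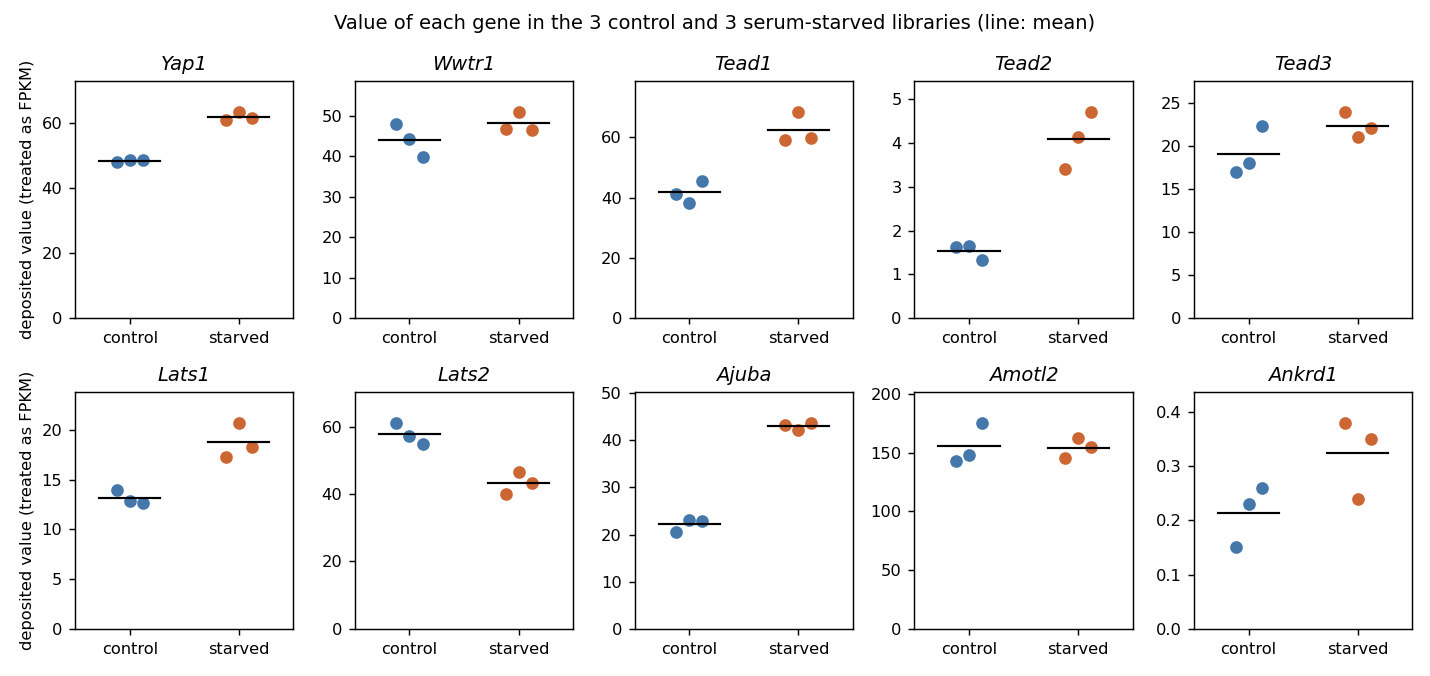
Deposited value of each of the 10 genes (vertical axis from 0, treated as FPKM) in the 3 control (blue) and 3 serum-starved (orange) libraries, with the mean as a line; the vertical scale differs between panels. Yap1, Tead1, Tead2, Lats1 and Ajuba are higher in every serum-starved library than in every control, Lats2 is lower in every one, and the Ankrd1 panel spans only 0.15 to 0.38.

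The coactivator gene Yap1 (gene ID 363014) stood at 61.1, 63.5 and 61.7 in serum-starved replicates 1, 2 and 3 and at 48.2, 48.6 and 48.6 in control replicates 1, 2 and 3. The controls lay within less than 1 unit of each other, and every serum-starved library was above them. Yap1 rose 1.28-fold, from 48.5 ± 0.244 to 62.1 ± 1.27 (SD, n = 3 each). Its log2 fold change was 0.35 ± 0.055 (SE, limma, Benjamini-Hochberg adjusted p = 0.000749). Wwtr1 (gene ID 295062), the gene of the YAP paralog TAZ, stood at 46.8, 51.0 and 46.6 in serum-starved and 48.0, 44.3 and 39.8 in control libraries. The groups overlapped, with control replicate 1 above serum-starved replicates 1 and 3. The log2 fold change of Wwtr1 was 0.13 with a 95% interval of -0.06 to 0.32 (limma, Benjamini-Hochberg adjusted p = 0.196), and it was called higher after quantile normalization (0.27, adjusted p = 0.021) and with equal totals (0.32, adjusted p = 0.0104). Leaving out control replicate 3 gave 0.06 (adjusted p = 0.5), without serum-starved replicate 2 it was 0.09, after median-ratio scaling 0.09, and without control replicate 1 it was 0.19 (adjusted p = 0.0766).

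The balance of the coactivator genes was taken within each library, where any factor of the library cancels. The Yap1 to Wwtr1 ratio was 1.30, 1.25 and 1.32 in serum-starved and 1.00, 1.10 and 1.22 in control libraries. All serum-starved ratios were above all control ratios, but control replicate 3 was close to serum-starved replicate 2, and the exact two-sided permutation test gave p = 0.1, the smallest that 3 against 3 libraries can give. The sum of Yap1 and Wwtr1, computed after seeing the data, was 110.2 ± 3.69 in serum-starved and 92.5 ± 3.89 in control libraries (SD, n = 3 each).

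Tead1 (gene ID 361630), which encodes a TEA-domain factor that carries YAP and TAZ to DNA, was at 59.0, 68.4 and 59.7 in serum-starved and 41.2, 38.3 and 45.6 in control libraries. It rose 1.49-fold, with a log2 fold change of 0.57 ± 0.087 (SE, limma, Benjamini-Hochberg adjusted p = 0.000656). In the RefSeq table an uncharacterized protein-coding gene and a long non-coding RNA overlap it, and without a stated strand their reads cannot be told from those of Tead1. Tead2 (gene ID 308582), a family member best known from early embryos, was at 3.41, 4.13 and 4.71 in serum-starved and 1.62, 1.66 and 1.33 in control libraries. Tead2 rose 2.66-fold, the largest ratio among the tested genes of the set, with a log2 fold change of 1.00 ± 0.118 (SE, limma, Benjamini-Hochberg adjusted p = 0.00016). It remained the second lowest of the set in level, and its value is uncertain because the RefSeq table names a pseudogene of it and an overlapping long non-coding RNA, and the protein-coding gene Cd37 also overlaps it.

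Tead3 (gene ID 294299) was at 24.0, 21.0 and 22.2 in serum-starved and 17.0, 18 and 22.4 in control libraries. Control replicate 3 alone reached the serum-starved range. The log2 fold change of Tead3 was 0.23 with a 95% interval of -0.02 to 0.47 and did not pass (limma, Benjamini-Hochberg adjusted p = 0.0946); without control replicate 3 it was 0.34 and was called higher (adjusted p = 0.00796), in a range of 0.00742 to 0.267 over the alternatives. The remaining paralog Tead4 was at 1.62, 1.5 and 1.84 in serum-starved and 1.16, 1.34 and 0.88 in control libraries. It was called higher (log2 fold change 0.32, limma, Benjamini-Hochberg adjusted p = 0.0389), but the call was lost when any library other than control replicate 2 was left out, with the highest adjusted p = 0.139 without serum-starved replicate 3.

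Summed over Tead1 to Tead4, the family stood at 88.0, 95.02 and 88.4 in serum-starved and 61.0, 59.3 and 70.2 in control libraries, a sum computed after seeing the data. Tead1 made up 68.8 ± 2.72% of it in serum-starved and 65.7 ± 1.65% in control libraries (SD, n = 3 each), and these shares overlapped (exact two-sided permutation p = 0.3). The difference was 3.10 percentage points, and 1.54 without serum-starved replicate 2. Tead3 held 22.1 to 27.3% in serum-starved and 27.8 to 31.9% in control libraries, and Tead2 3.88 to 5.33% and 1.90 to 2.8%. The order within the family, Tead1 above Tead3 above Tead2 above Tead4, held in each of the 6 libraries.

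**Figure D2:**
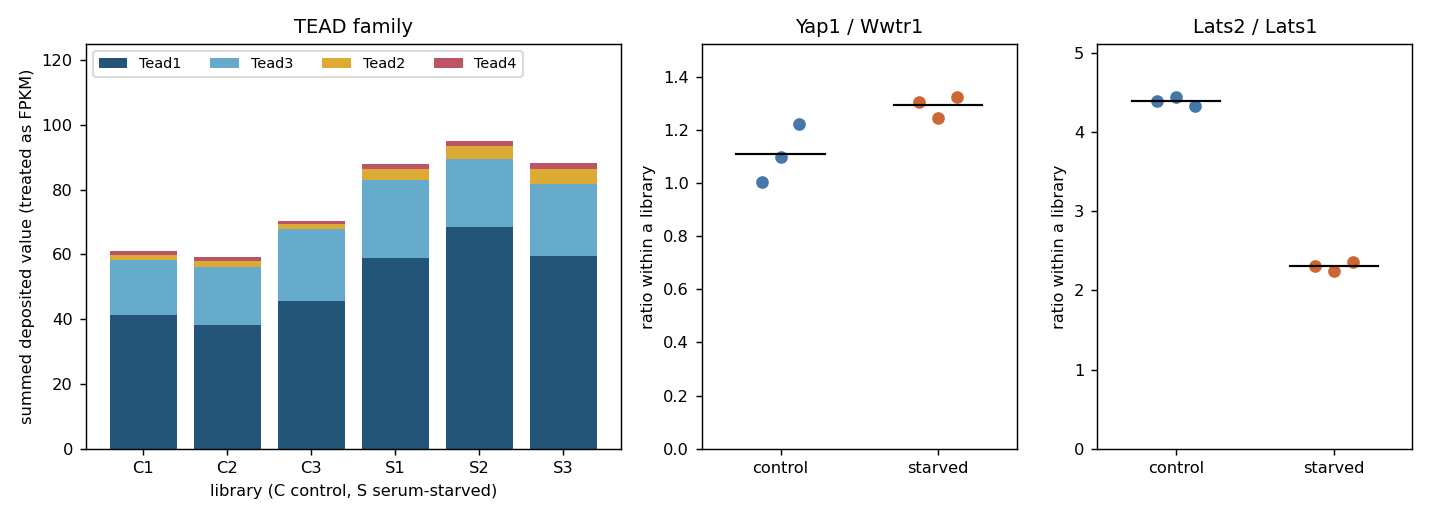
Left, summed deposited values of the TEAD family genes (treated as FPKM) in each library, C for control and S for serum-starved; middle and right, the Yap1 to Wwtr1 and Lats2 to Lats1 ratios within each library, with the mean as a line. The TEAD sum is 59.3 to 70.2 in controls and 88.0 to 95.02 in serum-starved libraries, and the Lats2 to Lats1 ratio is near 4.39 in controls and 2.31 in serum-starved libraries.

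The genes of the paired kinases that phosphorylate YAP and TAZ moved in opposite directions. Lats1 (gene ID 308265) was at 17.3, 20.7 and 18.3 in serum-starved and 13.9, 12.9 and 12.7 in control libraries, and rose 1.43-fold with a log2 fold change of 0.48 ± 0.083 (SE, limma, Benjamini-Hochberg adjusted p = 0.00131). Lats2 (gene ID 305922), which is also a transcriptional target of YAP and TAZ, was at 40.03, 46.6 and 43.2 in serum-starved and 61.2, 57.2 and 54.9 in control libraries. It was 1.33-fold lower, with a log2 fold change of -0.41 ± 0.075 (SE, limma, Benjamini-Hochberg adjusted p = 0.00177). In neither gene did the groups overlap. With equal totals the fall of Lats2 was -0.22 (adjusted p = 0.0469) beside an all-gene median of 0.20.

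Lats2 was the more abundant kinase transcript in all 6 libraries. The Lats2 to Lats1 ratio was 2.31, 2.25 and 2.36 in serum-starved and 4.39, 4.44 and 4.33 in control libraries. Within a group the ratio varied by less than 0.12, and between groups it was 1.90-fold higher in controls (4.39 ± 0.0560 against 2.31 ± 0.0592, SD, n = 3 each), with an exact two-sided permutation p = 0.1, the smallest possible. The summed value of both kinases, relative to the sum of Yap1 and Wwtr1, was 0.532, 0.588 and 0.568 in serum-starved and 0.781, 0.754 and 0.765 in control libraries, a ratio computed after seeing the data.

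Ajuba (gene ID 85265), a LIM-domain scaffold that binds and restrains LATS kinases and is itself a YAP target, gave the lowest adjusted p of the set. Its values were 43.3, 42.1 and 43.7 in serum-starved and 20.6, 23.2 and 23.0 in control libraries. The log2 fold change was 0.92 ± 0.067 (SE, limma, Benjamini-Hochberg adjusted p = 1.06e-05). Its family members Limd1, with a log2 fold change of 0.16 (adjusted p = 0.064), and Wtip, with -0.10 (adjusted p = 0.342), did not pass, and Wtip was at 0.08 with equal totals. Limd1 was called higher without control replicate 3 (adjusted p = 0.0361), after quantile normalization (0.0327), with equal totals (0.00267) and with library weights (0.0217).

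Amotl2 (gene ID 65157) encodes a junction scaffold of the angiomotin family, which binds YAP directly, and is a YAP target gene. It was the most abundant of the 10 genes, at 146, 162 and 155 in serum-starved and 143, 148 and 175 in control libraries. The groups overlapped fully, with control replicate 3 the highest of all, and the log2 fold change was -0.01 with a 95% interval of -0.21 to 0.20 (limma, Benjamini-Hochberg adjusted p = 0.95). Its sign changed with the scaling, to 0.19 with equal totals, and with the library left out. The paralog Amot was at 8.31, 10.6 and 9.20 in serum-starved and 2.90, 2.93 and 2.41 in control libraries, and rose 3.42-fold (log2 fold change 1.47 ± 0.107 (SE), limma, Benjamini-Hochberg adjusted p = 1.07e-05). Amotl1 was near 20.2 in control and 19.5 in serum-starved libraries and did not pass. Amot made up 4.81 to 5.50% of the angiomotin sum in serum-starved and 1.21 to 1.75% in control libraries, and Amotl2 over 80% in each.

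**Figure D3:**
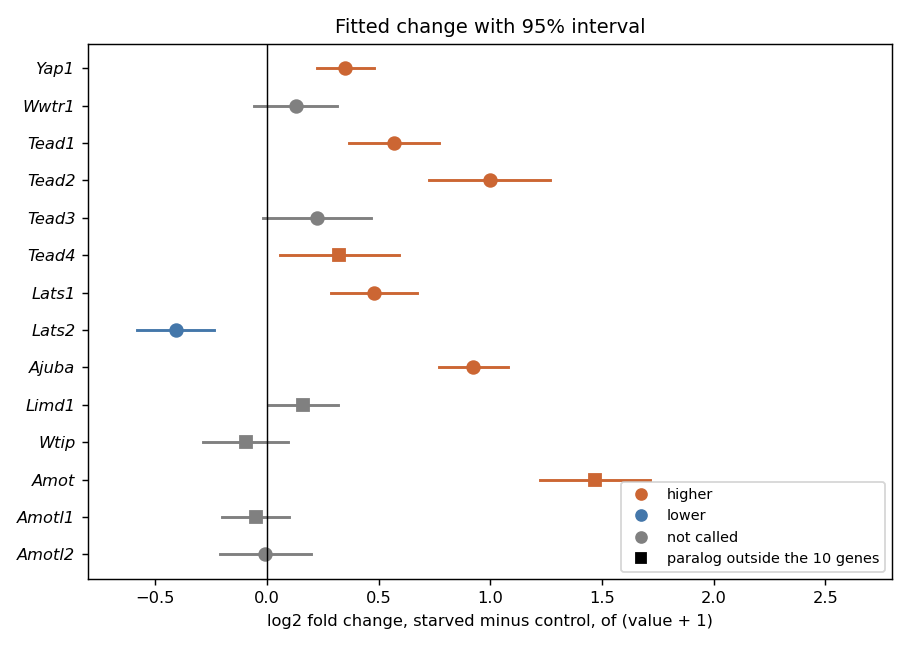
Log2 fold change, serum-starved minus control, of value + 1 with its 95% interval, for the 9 tested genes of the set (circles) and their tested paralogs (squares); orange rose, blue fell, grey did not pass. Amot has the highest value at 1.47, and Lats2 at -0.41 is the only gene drawn that fell.

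Ankrd1 (gene ID 27064), an ankyrin-repeat protein gene of striated muscle that is induced by YAP in many cultured cells, was at 0.38, 0.24 and 0.35 in serum-starved and 0.15, 0.23 and 0.26 in control libraries. All 6 values were under the filter of 1 and the groups overlapped. In controls 0.209% of tested genes had a lower mean, a share that the filter on tested genes keeps small by design. Of the 17093 genes listed, 2158 to 2215 were listed at 0 in each control library. With no filter the log2 fold change of Ankrd1 was 0.13 ± 0.055 (SE, limma, Benjamini-Hochberg adjusted p = 0.114). Its paralogs were as low, with Ankrd23 at 0.30 to 0.43 and Ankrd2 at 0.07 or less. Of 9 matched muscle markers, 6 were under 1 in every library, among them Ttn, listed at 0 throughout. Des, a muscle filament gene also found outside muscle, carried most of that list's sum, which was 121 to 143 in control and 18.5 to 23.6 in serum-starved libraries. Of the 3 tested, Des was lower and Acta1 higher (0.0633 in control and 1.37 in serum-starved cells on average).

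In the order of levels, control cells had Amotl2 first, then Lats2, Yap1, Wwtr1, Tead1, Ajuba, Tead3, Lats1, Tead2 and Ankrd1. Neighbours in this order were apart in all libraries except Wwtr1 with Tead1 and Ajuba with Tead3, whose values overlapped. In serum-starved cells the order was Amotl2, Tead1, Yap1, Wwtr1, Lats2, Ajuba, Tead3, Lats1, Tead2 and Ankrd1. There Tead1 overlapped with Yap1, and Lats2 with Ajuba. Lats2 went from the second to the fifth place, from 86.8% of tested genes below its mean to 84.0%, and Ajuba from 68.4% to 83.9%.

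Among 8584 tested genes with a mean of at least 5, those closest to Yap1 over the 6 libraries on the log2 scale were Mapk8ip1 (Pearson's r = 0.9995), Tanc1 and Nek9. As a description, 1218 genes had an r of at least 0.95 with Yap1, since the points are 6 libraries in 2 groups and share each library's total. Closest to Wwtr1 were Agap1 (r = 0.9958), Cul5 and Ube3a, and 48 genes reached 0.95. Closest to Ankrd1 were Rab34 (r = 0.9956), Ddost and LOC100910438, with 39 at 0.95, from Ankrd1 values that carry only 2 significant digits.

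The kinase cascade list, which also holds adaptor and coactivator genes and the kinase genes Stk38 and Stk38l, showed no common direction. Of 17 genes of the kinase cascade 15 were tested, of which 4 rose, 3 fell and 8 did not pass; the list's median log2 fold change was 0.08. Its 46.7% called stands beside 61.1% of all tested genes, and 7 rose with library weights and 8 with equal totals, where 1 fell. The MST kinase genes Stk3 (log2 fold change -0.04) and Stk4 (0.16), their adaptor gene Sav1 (-0.16) and the LATS coactivator genes Mob1a (-0.11) and Mob1b (0.08) were all among those that did not pass. Some of the other kinases that can act on LATS or MST changed. Map4k5 rose 2.45-fold, from 19.97 ± 1.83 to 49.0 ± 5.93 (SD, n = 3 each), Taok1, a kinase that activates MST kinases, rose 2.07-fold, and Map4k3 rose 1.81-fold. Map4k4, of the same kinase family and named after its values were seen, was 1.45-fold lower (log2 fold change -0.53, limma, Benjamini-Hochberg adjusted p = 0.000278).

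Upstream scaffolds included genes called in each direction. Of 23 genes 21 were matched and 19 tested, and 10 rose, 2 fell and 7 did not pass; the list's median log2 fold change was 0.30. Its 52.6% higher and 10.5% lower stand beside 31.7% and 29.4% of all tested genes, with no test of that difference. Fat4, an atypical cadherin, rose 3.31-fold, from 2.74 ± 0.234 to 9.06 ± 1.66 (SD, n = 3 each), and its ligand gene Dchs1, named after its values were seen, rose 1.49-fold. Fat1, of the same family and also named after its values were seen, was 1.21-fold lower (log2 fold change -0.28, limma, Benjamini-Hochberg adjusted p = 0.02075). The Crumbs-complex scaffold gene Patj rose 2.56-fold, from 1.14 to 2.93 on average. Rassf5, whose protein binds MST kinases, rose 2.26-fold, from 1.64 to 3.70. Both are low in level. Neither was tested with a filter of at least 5 in 3 libraries, where 8 genes of the list rose. Nf2, which encodes the LATS-recruiting protein merlin, rose by 0.31 on the log2 scale (limma, Benjamini-Hochberg adjusted p = 0.0111), whereas Frmd6, another FERM-domain gene of the pathway, fell by 0.43; both were named after their values were seen. The number that fell was 1 without serum-starved replicate 3 or control replicate 1, and 4 after median-ratio scaling. Wwc1, the gene of KIBRA, was listed at 0 in every library, while its paralog Wwc2 was at 14.7 to 21.2.

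The list of phosphatase, cytoplasmic adaptor and turnover genes held 28 genes, of which 27 were tested, 8 rose, 6 fell and 13 did not pass; its median log2 fold change was 0.07, and its 51.9% called stands beside 61.1% of all tested genes. Ywhae, which encodes an adaptor that binds phosphorylated YAP, was 1.49-fold lower (492 ± 12.6 in control and 330 ± 15.6 in serum-starved libraries, SD, n = 3 each), and Ywhaq and Ywhaz of the same family also fell, while Ywhab did not pass. Slmap, an adaptor that brings a phosphatase complex to MST kinases, rose 1.51-fold. Csnk1e, a casein kinase gene whose product marks YAP for turnover, rose 1.35-fold, while its paralog Csnk1d fell by 0.32 on the log2 scale. The number that rose was 5 without serum-starved replicate 1 and 16 with equal totals, where 2 fell.

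Partners of YAP and TEAD in the nucleus gave the most extreme values of the pathway. Of 16 genes 15 were matched and 13 tested; 5 rose, 4 fell and 4 did not pass, and the median log2 fold change was 0.06. The 69.2% called stands beside 61.1% of all tested genes. Vgll3, a vestigial-like cofactor that binds TEAD factors, was at 140, 162 and 142 in serum-starved and 41.2, 44.9 and 56.7 in control libraries. It rose 3.11-fold (log2 fold change 1.63 ± 0.117 (SE), limma, Benjamini-Hochberg adjusted p = 9.93e-06). Vgll4, which competes with YAP for TEAD factors and was named after its values were seen, rose 1.49-fold, from 22.9 ± 2.17 to 34.1 ± 3.26 (SD, n = 3 each). The AP-1 genes Fosl1 and Jun, whose products often bind beside TEAD factors, were 15.8-fold and 4.38-fold lower. Jun stood at 15.1, 10.3 and 11.5 in serum-starved and 59.9, 56.2 and 45.5 in control libraries. Smad7, an inhibitory SMAD reported to associate with YAP and named after its values were seen, was 3.51-fold lower.

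Target genes of YAP and TAZ went both ways. Of 23 genes 22 were matched and 20 tested, 9 rose, 8 fell and 3 did not pass, and the median log2 fold change was 0.10. Leaving aside the genes of the set, 8 of 17 rose and 7 fell. The 88.2% called is read beside 61.1% of all tested genes, with no test of that difference. Ptpn14, which rose and was named after its values were seen, is also on the upstream scaffold list and is counted in both. F3, the gene of tissue factor, was at 173, 176 and 124.97 in serum-starved and 536, 476 and 512 in control libraries, and Nt5e, an ecto-enzyme that makes adenosine, was 3.07-fold lower. Ccdc80, a secreted matrix protein gene, was at 1299, 1353 and 1248 in serum-starved and 543, 776 and 587 in control libraries, 2.05-fold higher. Nuak2, a kinase gene of the AMPK family named after its values were seen, rose 1.76-fold.

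The CCN genes are common readouts of YAP and TAZ. Cyr61 (Ccn1) was at 310, 225 and 259 in serum-starved and 483, 568 and 521 in control libraries and fell (log2 fold change -0.99, limma, Benjamini-Hochberg adjusted p = 0.000168). Ctgf (Ccn2) was at 1927, 1512 and 1451 in serum-starved and 1182, 1450 and 780 in control libraries, with control replicate 2 next to serum-starved replicate 3. Its log2 fold change of 0.55, with a 95% interval of 0.06 to 1.04, did not pass (adjusted p = 0.0506). Single libraries moved it both ways: without control replicate 2 it was 0.75 and was called higher (adjusted p = 0.0128), without control replicate 3 it was 0.31 (adjusted p = 0.116), and without serum-starved replicate 1 it was 0.43 (adjusted p = 0.146). With library weights it was 0.28 (adjusted p = 0.196), and over all alternatives the adjusted p ran from 0.00408 to 0.196. It was also called higher after quantile normalization (0.88, adjusted p = 0.00408) and with equal totals (0.75, adjusted p = 0.0101). The same held, at an unchanged 0.55, with the filter of at least 5 (adjusted p = 0.0473) and with the replicate block (adjusted p = 0.0292). Both genes were named after their values were seen. Among target genes in the set itself, Ajuba rose, Lats2 fell, Amotl2 did not pass and Ankrd1 was under the filter.

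**Figure D4:**
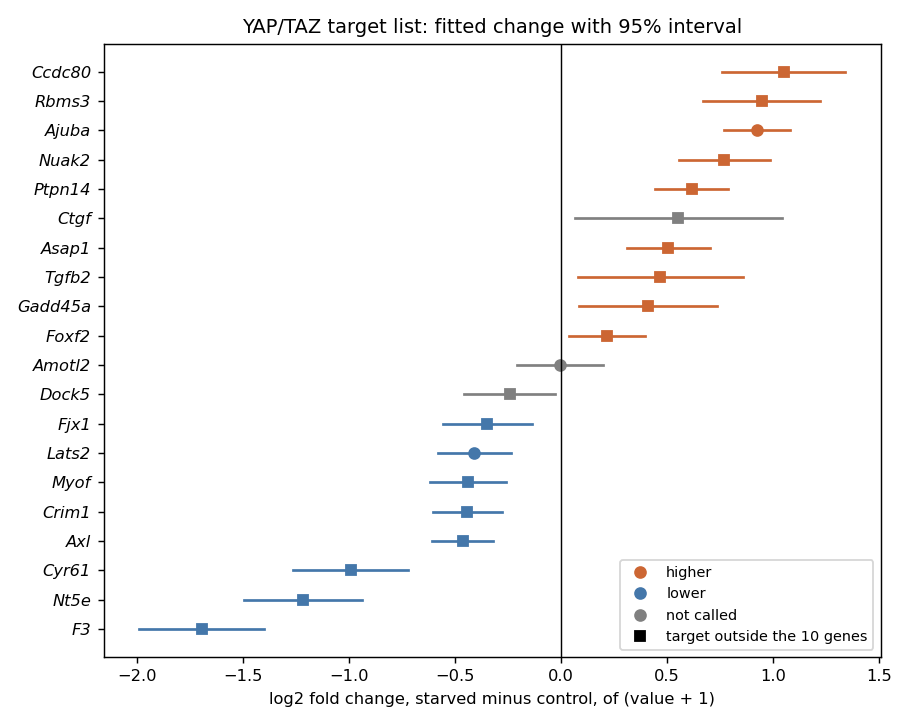
Log2 fold change, serum-starved minus control, of value + 1 with its 95% interval for the 20 tested genes of the YAP and TAZ target list, sorted by value; circles are genes of the set of 10. The list runs from F3 at -1.69 to Ccdc80 at 1.05, with Ajuba at 0.92, Amotl2 at -0.01 and Lats2 at -0.41.

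**Figure D5:**
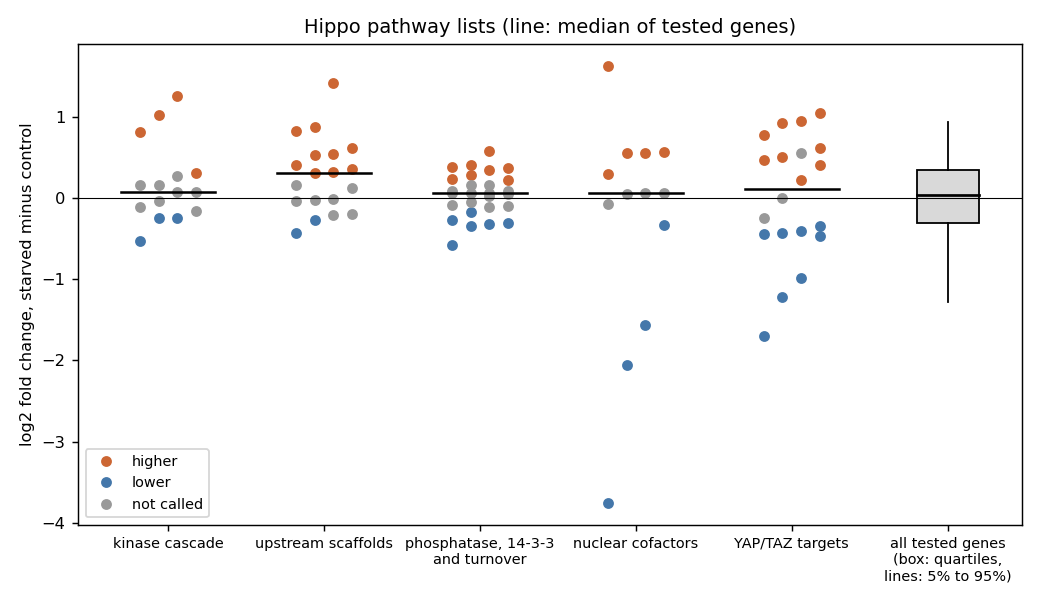
Log2 fold change, serum-starved minus control, of every tested gene in the 5 pathway lists (points, with the median as a line) and of all tested genes (box of quartiles with lines from the 5% to the 95% point). Each list has genes on both sides of 0, and the medians lie between 0.06 and 0.30, against 0.03 for all tested genes.

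Over all 5 lists, with the genes of the set left out, 90 genes were tested, of which 34 rose, 22 fell and 34 did not pass. Their 62.2% called is near the 61.1% of all tested genes. Their median was 0.07. With equal totals 50 rose and 13 fell.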

How the data were processed

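Total RNA of 6 libraries was depleted of ribosomal RNA and reverse transcribed from random primers, per the labels' protocols. The authors deposited 1 table per library with 1 value per gene, rounded to 2 decimals. The deposited headers name no unit, and the values are treated here as FPKM because they are not whole numbers and their totals differ. bcl2fastq 2.0, HISAT2, StringTie, DESeq2 and limma are named in the submitters' processing notes, as is the build mm10, a mouse build. The gene identifiers are rat ones, of which 15927 of 17093 (93.2%) matched the RefSeq table of GRCr8, including all 10 genes of the set. The annotation, the use of strand and the treatment of fragments matching several genes are not given in the sources used here.

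Values were analysed as log2(value + 1) with limma 3.58.1 (R 4.3.3, trended prior variance, treatment as the only term, 4 residual degrees of freedom) over 11493 genes. The fit was also run on simulated data with independent noise for each gene. That setting cannot show whether its p-values hold for these libraries. Tables and plots used Python 3.11.15, pandas 2.3.3, numpy 2.4.6, scipy 1.17.1 and matplotlib 3.10.9. No pair of libraries was near identical (at most 0.265% equal values among genes of at least 5).

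The members and lists were chosen with earlier results of these data known. Named were all 10 genes and their paralogs, and the 3 called genes with the largest change in each pathway list. The 3 genes most correlated with Yap1, Wwtr1 and Ankrd1 and the leading markers were also named. Further genes are said to have been named after their values were seen. So were Ywhaq, Ywhaz, Ywhab, Csnk1d and the MST kinase genes with their partners. The markers Car3, Pax1, Slc2a1, Cspg4, Mcam, Mkx, Pdgfra, Thy1, Cd68 and Acta1 were named in the same way. Alternatives varied pseudocount, filter, scaling, weights, prior, replicate term and libraries.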

Additional observations from a re-analysis of the deposited data

How the results depend on the processing

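Over 15 alternatives, the calls of Yap1, Tead1, Lats1, Lats2 and Ajuba were kept in all, and that of Tead2 in the 14 in which it was tested. The log2 fold change ranged from 0.31 to 0.54 for Yap1, from -0.46 to -0.22 for Lats2 and from 0.87 to 1.11 for Ajuba. Amotl2, never called, was above 0 after quantile normalization (0.125), with equal totals (0.185) and with library weights (0.037), and from -0.065 to 0.083 when single libraries were left out. Amotl1 was at 0.013 after quantile normalization and 0.132 with equal totals, and Wtip at 0.083 with equal totals. Tead3 was also called with library weights (0.27). With equal totals 50 genes of the pathway lists rose, against 34, and 13 fell, against 22, and the kinase cascade had 8 that rose and 1 that fell, against 4 and 3. With library weights 7 kinase genes rose. Among scaffold genes 1 fell after quantile normalization or with equal totals, against 2, and 3 adaptor and turnover genes fell after quantile normalization, against 6. Leaving out single libraries gave 5899 to 6683 calls over all genes, and 5 to 6 genes of the set that rose. Same-numbered libraries deviated together by r of 0.037, -0.162 and 0.101, so the numbers were not taken to pair them. With the replicate number as a block, 3508 genes rose and 3293 fell, against 3640 and 3384, Tead4 lost its call (adjusted p = 0.0729), Ctgf gained one (0.0292), and 5 genes of the set rose and 1 fell, as without it. The Yap1 to Wwtr1, Lats2 to Lats1 and Tead1 share differences kept their sign with 0.1 added throughout and with each library left out. A factor of the library or the replicate block cannot change these differences, so those alternatives say nothing about them. No counts were available, so counting error is unknown.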
